A study of Parascaris univalens with 7 samples.

Results

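MFP1 and MFP2 are cytosolic proteins of nematode sperm, known from Ascaris, that act on the growth of filaments made of major sperm protein (MSP). Nematode sperm have no flagellum and crawl. MSP filaments assemble behind the leading edge and push it forward, a task that actin performs in other crawling cells. In cell-free extracts of Ascaris sperm MFP2 speeds the growth of these filaments and MFP1 slows it. The 6 genes described here are those of Parascaris univalens, the horse roundworm and a relative of Ascaris, that a fixed list took from the deposited gene table, all annotated as MFP1 or MFP2. They are 6 of 15027 genes and hold 12 of 40487 transcripts. Another 7 genes with an MFP name, 4 of them MFP3, were outside that list and are described as partners.

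RNA was sequenced from testis, ovary, embryo and intestine and from carcass (the body left after dissection) of a North American wild-type strain, with 1 library per tissue and no treatment. The worms were adults from horse intestine, while the embryo library is of embryos and not of adult tissue. The labels call testis male germline, ovary female germline, and embryo, intestine and carcass all male somatic. Ribosomal RNA was depleted before library construction. The number of animals in a library is not given in the sources used here. Each transcript has a value in RPKM, a count of reads divided by the length of the transcript and the size of the library. Since no tissue was sequenced in replicate, no p-value is given, and a difference between tissues is a difference between these libraries. The intervals are 95% Poisson intervals of the read count, widened by the rounding of RPKM to 1 decimal, and they cover counting error only. A level in whole tissue does not tell fewer cells of a type from less RNA per cell.

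The libraries held between 11950000 (embryo) and 31800000 (ovary) reads, as recovered from the spacing of low RPKM values. The summed markers of each tissue, found by words in the annotation, were highest in the tissue they stand for. The testis markers, the 11 genes with major sperm protein spelled out in their annotation, summed to 11989 RPKM in testis, against 7.4 in ovary and 55.9 in embryo, and 324 in intestine and 132 in carcass. The summed ovarian, intestinal and carcass markers were highest in ovary (37951 RPKM over 23 genes), intestine (14271 over 22) and carcass (58960 over 158). Single markers varied: 57 of the 158 carcass genes, found by the words for cuticle collagen, troponin and tropomyosin, were at 0 in carcass, against 0 of the 11 testis genes in testis, 0 of the 23 ovarian genes in ovary and 1 of the 22 intestinal genes in intestine. No marker was fixed for the embryo.

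The 6 genes lie at 4 loci. Both MFP1 genes, annotated MFP1-beta, are at 1 locus on scaffold PgR166. PgR166_g003 runs from position 17317 to 22565 on the plus strand and has 3 transcripts. PgR166_g004 is a single exon of 455 nt from 17898 to 18352 on the minus strand, inside the span of PgR166_g003. The 4 MFP2 genes are at 3 loci. PgR047_g059, annotated MFP2b, runs from 1067821 to 1071076 on the plus strand of scaffold PgR047, with 3 transcripts. It lies inside PgR047_g058, an MFP2b gene on the minus strand that was not on the list. PgR019_g016, annotated MFP2c, runs from 303911 to 307049 on the minus strand of PgR019, has 5 exons and 1 transcript, and overlaps no other gene. PgR024_g052, annotated MFP2, runs from 783786 to 787809 on the minus strand of PgR024 and has 3 transcripts. PgR024_g053, annotated as sperm cell motility protein mfp2, has 2 exons and lies inside it from 784991 to 785666 on the plus strand. Positions are as deposited, and the genome build is not given in the sources used here.

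**Figure D1:**
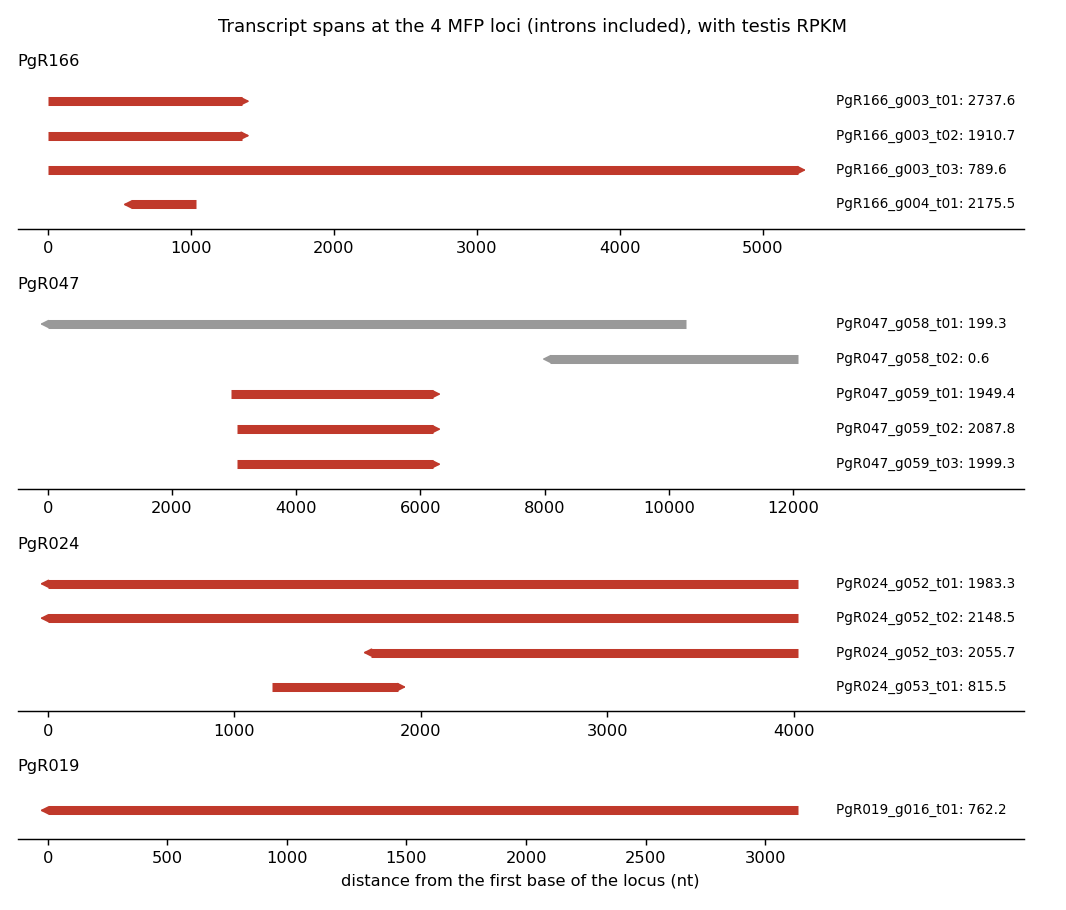
Spans of the transcripts at the 4 loci, introns included, against distance in nt from the first base of each locus. Red marks the 6 genes, grey the MFP2b gene PgR047_g058, arrowheads give the strand, and the number after each name is the testis level in RPKM, from 0.6 for PgR047_g058_t02 to 2737.6 for PgR166_g003_t01.

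All 6 genes were at their highest in testis, where they stood between 762 and 2738 RPKM. They held places 23 to 76 among the 15027 genes ranked by testis level. By value, intestine came second in each of the 6, then carcass, embryo and ovary. Within PgR024_g053 the intervals of intestine and carcass overlapped, as did those of embryo and ovary. A gene is represented below by its transcript with the highest mean over the 5 tissues, and no member was lost to a filter on low values.

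The MFP1 gene PgR166_g003 had 2738 RPKM in testis (interval 2720 to 2756), against 2.4 in ovary (1.86 to 3.04), 9.0 in embryo (7.42 to 10.9), 84.9 in intestine (80.8 to 89.2) and 30.5 in carcass (28.5 to 32.6). The testis level was 1141 times the ovary level and 32.2 times the intestine level. PgR166_g004, the MFP1 gene inside it, had 2176 RPKM in testis, against 1.4 in ovary and 7.6 in embryo, and 69 in intestine and 23.7 in carcass. For both genes the 5 intervals did not overlap between tissues.

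Among the MFP2 genes, PgR024_g052 had 2149 RPKM in testis (2135 to 2162), against 10 in ovary (9.08 to 11.0), 12.7 in embryo (11.1 to 14.5), 58 in intestine (55.2 to 60.9) and 38 in carcass (36.1 to 40.0). Its ovary and embryo levels stood closest to each other. PgR047_g059 had 2088 RPKM in testis (2074 to 2101), against 2.7 in ovary (2.20 to 3.28), 6.3 in embryo (5.15 to 7.61), 46.6 in intestine (44.0 to 49.3) and 17 in carcass (15.7 to 18.4). PgR024_g053 had 816 RPKM in testis, against 3.8 in ovary (2.68 to 5.24), 4.4 in embryo (2.50 to 7.11), 16.9 in intestine (13.7 to 20.7) and 13.4 in carcass (11.0 to 16.1). In this short gene of 306 nt the ovary and embryo intervals overlapped, as did those of intestine and carcass, so the order within these pairs is not resolved at this depth. PgR019_g016, the MFP2c gene, was the lowest of the 6 in testis with 762 RPKM (754 to 770), against 0.1 in ovary, 3.0 in embryo (2.21 to 3.98), 17.6 in intestine (16.02 to 19.3) and 8.3 in carcass (7.40 to 9.30). Its ovary value corresponds to about 5 reads, with an interval of 0.014 to 0.286 RPKM.

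**Figure D2:**
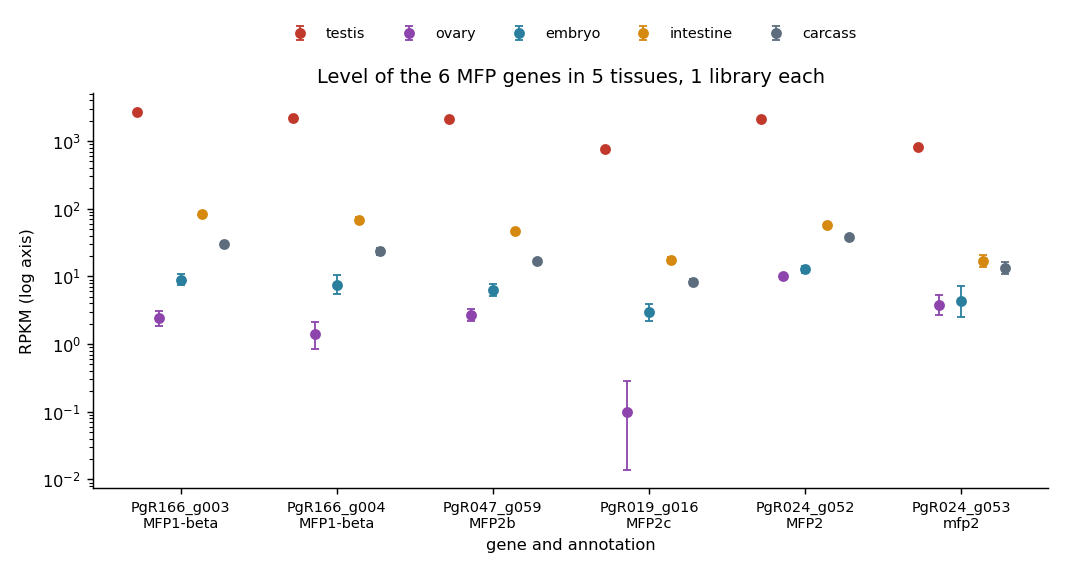
RPKM (log axis) of the 6 genes in the 5 tissues, 1 library each, with 95% Poisson intervals for counting error. The testis points lie between 762 and 2738 RPKM and every other point at 84.9 RPKM or below. The ovary point is lowest in each gene, though in PgR024_g053 its interval overlaps that of embryo.

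In testis the MFP1 gene PgR166_g003 was the highest, and its interval lay above those of the other 5. PgR166_g004 (2151 to 2200) and PgR024_g052 overlapped, so their order is not resolved. PgR047_g059 lay below both with these transcripts. With the transcripts the authors mark as best expressed, PgR047_g059 (1986 to 2013) and PgR024_g052 (1971 to 1996) overlapped, so their order depended on the transcript. PgR024_g053 (798 to 834) lay above PgR019_g016 by a small margin and far below the other 4. The place of PgR166_g003 depended on the transcript taken: it was 1st with the highest-mean transcript, 4th at 1911 RPKM with the transcript the authors mark as best expressed, and 5th at 790 RPKM with the longest one.

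A difference between tissues is one of log2(RPKM + 1). The call of higher in testis required 4-fold, a difference of 2, and 5 RPKM or more in testis. All 6 genes were called against ovary, a call made for 11.6% of the 15027 genes. The differences ran from 7.41 for PgR024_g053 to 9.82 for PgR166_g004, with a median of 9.29, and the median over all genes was −0.56. Against embryo all 6 were called (11.6% of all genes), at 7.24 to 8.16 with a median of 7.78, beside −0.45 for all genes. Against intestine all 6 were called (15.8% of all genes), at 4.96 to 5.51 with a median of 5.27, beside 0.14 for all genes. Against carcass all 6 were called (18.4% of all genes), at 5.78 to 6.86 with a median of 6.40, beside 0.38 for all genes. All 6 were called against each of the other 4 tissues at once, as were 9.48% of all genes. These 4 comparisons share the testis library, and the genes inside one another share sequence, so neither the comparisons nor the 6 genes are separate observations.

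Levels outside testis were low but counted, and as a share of the testis level they fell into a narrow range. In intestine the 6 genes stood at 2.07% (PgR024_g053) to 3.17% (PgR166_g004) of their testis level, a median of 2.50%. In carcass they stood at 0.814% (PgR047_g059) to 1.77% (PgR024_g052), and in embryo at 0.302% to 0.591%. In ovary the range was wider, from 0.0131% for PgR019_g016 to 0.466% for PgR024_g053.

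The PgR024 pair differed from the other 4 genes in ovary and carcass. PgR024_g053 lies inside PgR024_g052 and reads may be counted at both, so the pair is not a set of separate observations. PgR024_g052 stood at 0.465% of its testis level in ovary (interval 0.420% to 0.514%) and PgR024_g053 at 0.466% (0.321% to 0.657%). The other 4 had at most 0.129% (PgR047_g059, 0.105% to 0.158%), and their intervals did not reach those of the pair. In carcass the pair stood at 1.77% (1.67% to 1.87%) and 1.64% (1.32% to 2.02%), against 0.814% to 1.11% for the other 4. In embryo PgR024_g052, at 0.591% (0.512% to 0.678%), lay above both MFP1 genes and PgR047_g059, whose highest upper bound was 0.485%, while its interval met that of PgR019_g016 (0.287% to 0.527%). No such order was seen in intestine, where both MFP1 genes had the highest shares (3.10% for PgR166_g003 with an interval of 2.93% to 3.28%, and 3.17% for PgR166_g004 with 2.89% to 3.48%) and PgR024_g052 had 2.70% (2.55% to 2.85%).

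Other genes high in testis and low in ovary were set beside the 6. The 343 genes outside the 6 with at least 100 RPKM in testis and no more than 1% of that in ovary include 19 MSP genes and 6 other MFP genes. Over these 343 the median share of the testis level was 1.69% in intestine (quartiles 1.20% and 2.49%), 1.14% in carcass (0.922% and 1.46%) and 0.363% in embryo (0.143% and 0.961%). The intestine median of the 6 MFP genes, 2.50%, lay just above that upper quartile. Some of the 343 were not highest in testis: PgR106_g028 stood at 4486% of its testis level in intestine and PgR010_g147 at 2366%. Since the 343 were chosen for a low ovary level, only the order of the other tissues can be read in them. Intestine above carcass above embryo, as in the values of all 6 MFP genes, was found in 200 of the 343 (58.3%). The 20 MSP genes with at least 100 RPKM in testis had a median share of 2.04% in intestine, 1.09% in carcass and 0.393% in embryo. Genes annotated either as major sperm protein (the 11 above) or with the letters MSP are called MSP genes here and number 43. Their summed level in intestine was 618 RPKM, 2.37% of the testis sum, and 9 of the 43 were listed at 0. In carcass the sum was 301 RPKM (1.15%; 2 of 43 at 0), in embryo 159 (0.609%; 8 at 0) and in ovary 38.7 (0.148%; 15 at 0), where the testis sum was 26077 RPKM with none at 0. The 6 MFP genes summed to 10727 RPKM in testis, against 20.4 in ovary (0.190%) and 43 in embryo (0.401%), and against 293 in intestine (2.73%) and 131 in carcass (1.22%). PgR166_g004 and PgR024_g053 lie inside other genes of the 6, and reads counted at both genes of a pair would enter these sums at each. The part of testis RNA in the levels of the MFP genes outside testis was not tested.

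**Figure D3:**
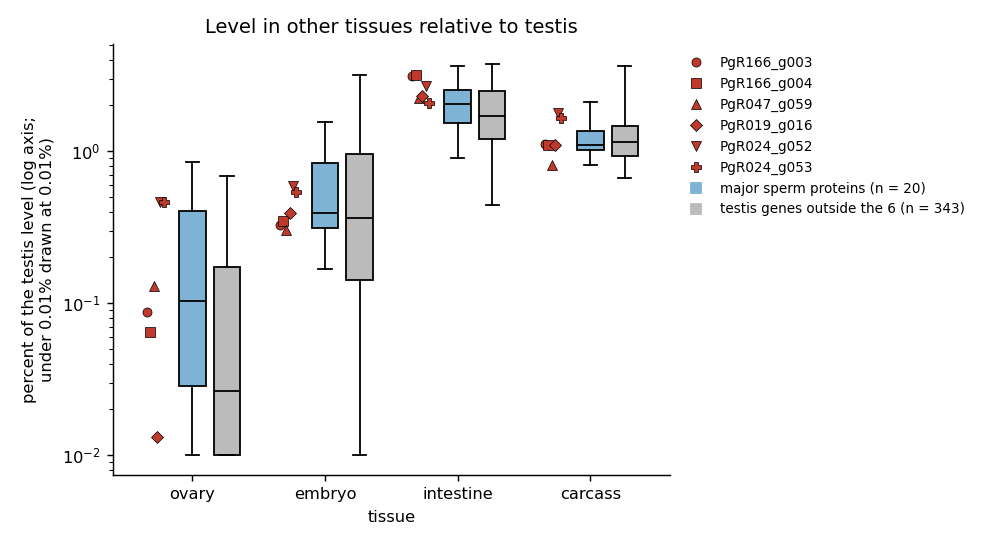
Level in ovary, embryo, intestine and carcass as a percent of the testis level (log axis) for the 6 MFP genes (red symbols), the 20 MSP genes with at least 100 RPKM in testis (blue boxes) and 343 genes outside the 6 (grey boxes, which include 19 of those MSP genes). The 343, labelled testis genes, were chosen for a high testis and low ovary level, and some are higher in another tissue. Boxes show quartiles and median with whiskers at the 5th and 95th percentiles. In intestine the 6 genes lie between 2.07% and 3.17%, and in ovary and carcass both PgR024 genes lie above the other 4.

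The transcripts of a gene differed in RPKM partly through their lengths. RPKM multiplied by transcript length in kilobases gives RPM, the reads of a transcript scaled to library size alone, and on this scale PgR166_g003_t03, the long MFP1 transcript of 3582 nt, held 2828 RPM in testis, beside 2820 for PgR166_g003_t01 of 1030 nt. The added 2552 nt thus carried 0.306% more reads, and the RPKM of 790 for the long form was 28.8% of that of the short form. PgR047_g059_t01, which is 100 nt longer than PgR047_g059_t02, held the same 2942 RPM. As shares of testis the transcripts of a gene stood close together: those of PgR166_g003 had 3.09% to 3.11% in intestine, and those of PgR047_g059 had 2.23% to 2.27%. PgR024_g052 varied more, from 2.70% to 3.44% in intestine and from 0.355% to 0.465% in ovary, with PgR024_g052_t03 (611 nt) at the end nearer to the other loci in ovary.

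**Figure D4:**
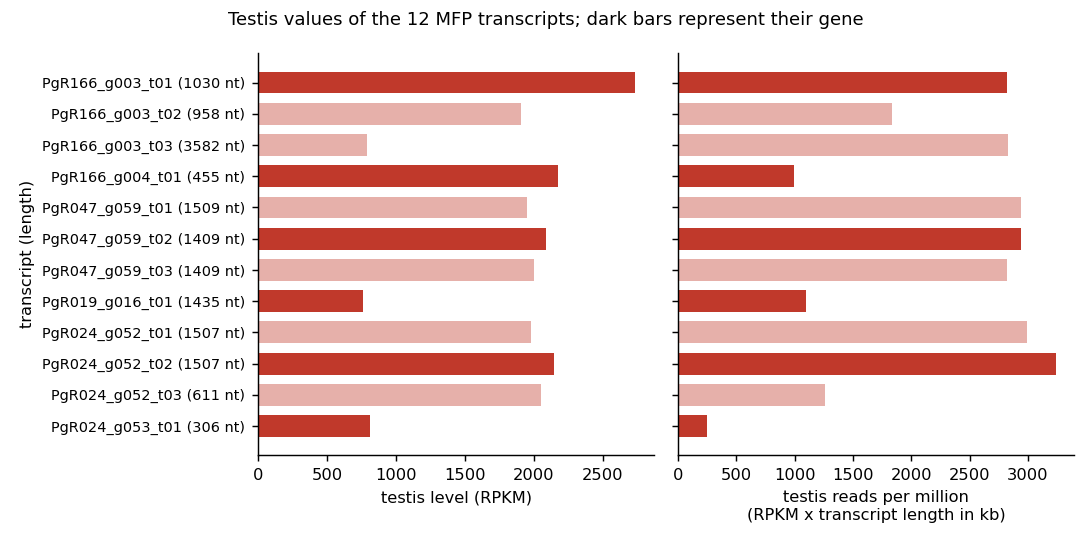
Testis values of the 12 transcripts, with length in nt, as RPKM (left) and as RPM (right); dark bars mark the transcript that represents its gene. PgR166_g003_t03 has the second lowest RPKM of the 12 (790) but about as many reads (2828 RPM) as PgR166_g003_t01 (2820).

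The reads of both inner genes equalled, or nearly so, a difference between transcripts of the gene around them. PgR166_g004 held 990 RPM in testis, and PgR166_g003_t01 held 989 more than PgR166_g003_t02, a transcript of the same span that is 72 nt shorter. In the other tissues that difference was 97.3% to 102% of the reads of PgR166_g004. At the PgR024 locus, PgR024_g053 held 249.5 RPM in testis, and PgR024_g052_t02 held 249.0 more than PgR024_g052_t01, a transcript with the same ends and length. That difference was 99.1% to 104% of the reads of PgR024_g053 in the other 4 tissues. The level of PgR166_g004 was 79.5% of that of its host in testis, against 58.3% in ovary and 84.4% in embryo, and 81.3% in intestine and 77.7% in carcass. That of PgR024_g053 was 38.0% in testis, against 38% in ovary and 34.6% in embryo, and 29.1% in intestine and 35.3% in carcass. The sources used here do not say if the libraries were stranded. The values of both inner genes, and of the host transcripts with the added reads, are uncertain for that reason. Without the inner genes, 4 of 4 remaining genes were called in every comparison, with those host transcripts still representing their genes.

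The MFP2b gene PgR047_g058, which spans PgR047_g059 on the other strand, had 199 RPKM in testis, against 1.2 in ovary and 6.3 in embryo, and 4.1 in intestine and 3.5 in carcass. It held 125.4 RPM in testis, which stood beside 124.7 by which PgR047_g059_t02 exceeded PgR047_g059_t03, which is of equal length. In the other tissues the same difference was 18.7% of the reads of PgR047_g058 in ovary and 10.7% in embryo. It was 71.0% for intestine and 64.0% for carcass. The ovary difference, 0.141 RPM, was no larger than its rounding error of 0.141, so that percent is not resolved. The second transcript of PgR047_g058, PgR047_g058_t02, starts beyond the end of PgR047_g059 and is annotated as hypothetical. It had 0.6 RPKM in testis (0.376 to 0.883), against 3.0 in embryo (2.27 to 3.87).

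Of the 9 genes nearest to the members on either side, 1 was called higher in testis than in each other tissue, a call made for 9.48% of all genes. This gene, PgR047_g057, a serine/threonine-protein kinase 16063 nt from PgR047_g059, had 42.1 RPKM in testis, against 1 in ovary and 0.4 in carcass, and was listed at 0 in embryo and intestine. The other 8 had between 0.1 and 9.2 RPKM in testis, and none of them was highest there. PgR024_g054, 263 nt from PgR024_g052 on the same strand, had 2.7 RPKM in testis. PgR166_g005, an aspartic protease gene that overlaps the 3′ end of the long MFP1 transcript on the same strand, had 0.7.

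None of the 12 transcripts is marked as lying in eliminated DNA, the part of the genome that somatic cells of this worm discard. That mark was found for 8 of the 43 MSP genes, 28.8% of the 1425 genes called higher in testis than in every other tissue and 6.55% of all genes, a share at which 0 of 6 is no contrast. All 12 carry the mark of the TeloPrime library of 5′ ends, made from a mixed sample, and none carries the spliced leader mark, which stands for a short RNA joined to the 5′ end of many nematode mRNAs. The TeloPrime mark without the spliced leader mark was found in 6 of 6 MFP genes and 6 of the 7 other MFP genes. It was also found in 24 of 43 MSP genes and 34.9% of the same 1425 genes, beside 9.01% of all genes. These sets differ in testis level: the median was 90.4 RPKM over the 43 MSP genes, against at least 762 for each of the 6. Both inner genes share a locus with their hosts, so the 6 are not separate observations. The mark is a yes or no in the table, with no value per tissue.

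The other MFP genes were described beside the 6. MFP3, which in Ascaris binds MSP filaments and stabilises them, has 4 genes. PgR016_g083 had 811 RPKM in testis, against 1.1 in ovary and 2.9 in embryo, and 13.9 in intestine and 8.2 in carcass, and PgR016_g084 had 361 in testis. PgR205_g003 and PgR205_g002 had 176 and 153 RPKM in testis and at most 6.1 elsewhere. Another MFP2 gene, PgR006_g147, had 761 RPKM in testis, against 0.4 in ovary and 2.1 in embryo, and 15.6 in intestine and 6.6 in carcass. Its testis interval (757 to 765) overlapped that of PgR019_g016, while its carcass interval (6.17 to 7.05) lay below. Of these 7 genes 6 were called higher in testis than in each other tissue, beside 9.48% of all genes. The exception, PgR022X_g029, annotated MFP2 with no strand, had 3.3 RPKM in testis (2.44 to 4.39), under the 5 RPKM that a call needs, and was listed at 0 in the other 4 tissues.

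The proteins that MFP1 and MFP2 act on or are acted on by were grouped by words in the annotation. Over all genes, 9.48% were called higher in testis than in each of the other 4 tissues and 0.519% lower. Of 43 MSP genes, 39 were called higher and 0 lower. Their median difference to the highest other tissue was 4.56, beside −1.36 over all genes. The 4 not called include PgR011_g014 and PgR108X_g019, at differences of −2.34 and −1.71. PgE404_g001, MSP isoform beta, had 6856 RPKM in testis, against 1.2 in ovary and 24.4 in embryo, and 180 in intestine and 74 in carcass. PgE404_g002, of the same name, had 4424 RPKM in testis, PgR011_g012 (MSP-domain protein 1) 4529 and PgR345_g001 (MSP-domain protein 4) 2780. No sequence was at hand to compare the MSP genes, and how reads that match several genes were counted is not given in the sources used here. Summed over genes, the 43 MSP genes had 26077 RPKM in testis beside 10727 for the 6 MFP genes. The MFP sum includes both inner genes and their hosts, so reads counted at both would enter it at each.

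In Ascaris the kinase MPAK, of the casein kinase I family, phosphorylates MFP2 and MFP3, and the phosphatase PP2A removes phosphate from MFP3. Of 48 genes annotated as casein kinase I or tau-tubulin kinase, a branch of the same family, 35 were called higher in testis than in each other tissue and 0 lower, with a median difference of 3.56. Over all genes 9.48% were called higher and 0.519% lower. PgR043_g077, a tau-tubulin kinase 1, had 348 RPKM in testis, against 0.3 in ovary and 1.4 in embryo, and 4.2 in intestine and 3.0 in carcass. PgB04_g119 and PgE232_g001 had 245 and 160 RPKM in testis and at most 4.8 elsewhere. PgB10_g103 was not called, with 146 RPKM in testis and 68.8 in ovary. No gene in the table is annotated MPAK, so which of these genes corresponds to it is not known here.

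PP2A genes did not share the pattern of the MSP and kinase genes. None of 14 (0) was called higher or lower in testis than in each other tissue. Over all genes 9.48% were called higher and 0.519% lower, shares at which 0 of 14 is no contrast. The median difference of the PP2A genes was −1.42, near the −1.36 of all genes. PgB12X_g019, a regulatory subunit B, had 51.6 RPKM in testis, against 12.8 in ovary and 3.3 in embryo, and 1.5 in intestine and 0.6 in carcass, a difference of 1.93 that lay just under the threshold. PgR101_g011, a regulatory subunit A, had 31.7 RPKM in testis and 10.4 in ovary. With median-of-ratios or upper-quartile scaling 2 of the 14 were called. In Caenorhabditis elegans fer-1 and spe-4 serve the membranous organelles of sperm. Of 10 genes annotated fer-1, spe-4 or myoferlin, a relative of fer-1, 8 were called higher and 0 lower (median 3.26). PgE022_g007, a fer-1 gene, had 48.7 RPKM in testis and at most 1.1 elsewhere, so that the highest of this group was below the lowest of the 6 MFP genes.

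**Figure D5:**
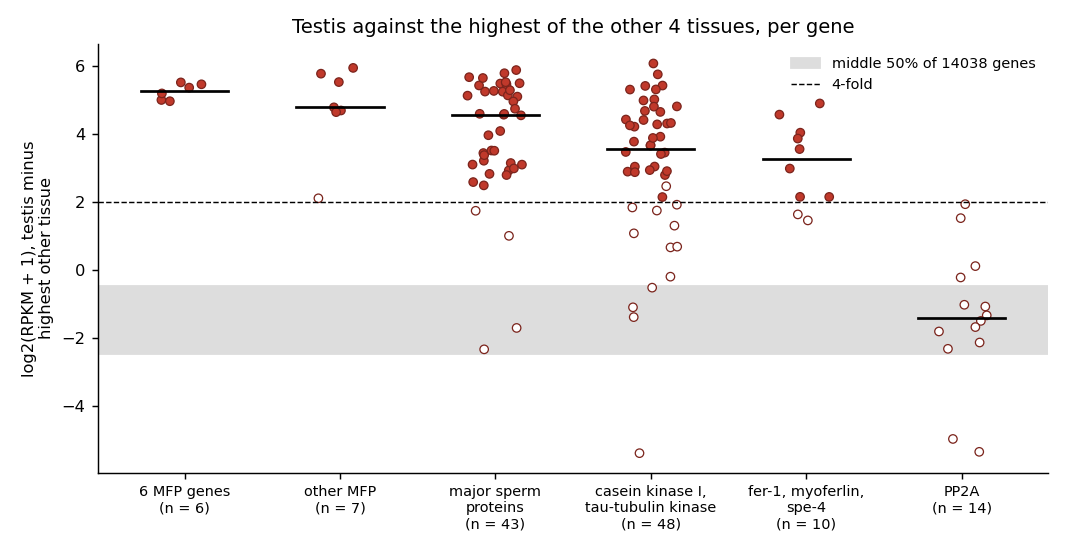
Difference of log2(RPKM + 1) between testis and the highest other tissue, per gene, for the 6 MFP genes and the partner groups. Filled points were called, black bars are medians, the dashed line is the 4-fold threshold and the grey band holds the middle 50% of the 14038 genes with at least 1 RPKM in a tissue. The 6 MFP genes lie between 4.96 and 5.51, and the PP2A median of −1.42 lies inside the band.

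Likeness of level and pattern together was measured as the Euclidean distance on log2(RPKM + 1) over the 5 tissues. The level of a gene was not taken out, so genes with like shares of testis can lie far apart. PgR024_g052 and PgR024_g053, close in their ovary share, were 3.20 apart. Among annotated genes only the nearest of each annotation text was kept. Further genes with a listed annotation, such as other MSP-domain genes, can therefore lie nearer than genes named after it. The nearest annotated gene to the median profile of the 6 was PgR345_g001 (MSP-domain protein 4) at a distance of 0.95, followed by PgR011_g011 (MSP-domain protein 1) at 1.15. PgR002_g252 (annotated KCTD16), PgE082_g001 (a splicing factor), PgR052_g015 (a clpx subunit), PgE097_g003 (pyruvate dehydrogenase E1 alpha), PgB04_g188 (p40) and PgE404_g002 (MSP isoform beta) followed at 1.72 to 2.61. PgR011_g011 had 2375 RPKM in testis, against 0.7 in ovary and 7.3 in embryo, and 52 in intestine and 27.1 in carcass. Of the 10 nearest genes outside the 6, with any annotation, 5 were annotated hypothetical or uncharacterized. Taken singly, both MFP1 genes and PgR047_g059 had PgR345_g001 and PgR011_g011 as their nearest 2. PgR024_g052 had PgR345_g001 at 1.48 and PgE082_g001 at 1.84, and PgR024_g053 had PgE097_g003 at 1.01 and PgB03_g106, another MSP-domain protein 4, at 1.07. PgR019_g016, the lowest in testis, was nearest to PgR091_g029 (vesicle-associated membrane protein 3) at 0.49 and PgR031_g050 (tyrosine-protein kinase fer) at 0.58. Among the 6 themselves both MFP1 genes were nearest to each other (0.79), while PgR019_g016 and PgR024_g052 were farthest apart (4.84). PgR166_g004 lies inside PgR166_g003 and reads may be counted at both, so the 0.79 cannot be read as a likeness of separate genes.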

How the data were processed

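The 6 genes and all lists were chosen with earlier results of these data known. The authors' deposited table gives 1 RPKM value per transcript and tissue, to 1 decimal, from rRNA-depleted total RNA, per the labels' protocols. Per the submitters' processing notes, TopHat2 and Cufflinks were among the tools; the sources used here give no versions, genome build, strand setting or rule for reads with several matches. No columns of other samples were present (0). Depth was recovered as the read total whose steps best matched low RPKM values of transcripts up to 800 nt, checked on simulated data. Read counts behind the 95% intervals are RPKM times length times that depth. Differences used a pseudocount of 1, so they understate folds of low genes. Every gene was called by the same rule for the background. Named genes are the 6, genes overlapping or adjoining them, the 4 list members highest in testis (all 7 other MFP genes), the 8 annotated genes nearest the median profile and the 2 nearest each gene. For the nearest genes, only the nearest gene of each annotation text was kept. PgR047_g058_t02 and the equal read differences were singled out after their values were seen. Python 3.11.15, numpy 2.4.6, pandas 2.3.3 and scipy 1.17.1 were used. No sequence is printed.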

Additional observations from a re-analysis of the deposited data

How the results depend on the processing

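The 6 genes were called higher in testis in every comparison under 13 alternatives to the pseudocount, scaling, transcript choice, threshold and filter (4 of 4 with the inner genes left out). Another 3, chosen after seeing the data, left all 6 called against the other tissues at once: the authors' best-expressed transcript, and leaving out the embryo or the intestine library. Differences of single genes ranged from 4.53 to 11.90. Scaling moved the median difference of the genes with at least 1 RPKM in a compared tissue by −0.69 to 1.03, and the lowest of the 6 stayed at least 4.56 above it. PP2A calls went to 2 of 14 with median-of-ratios scaling, 2 with upper-quartile scaling and 2 at 2-fold, and fer-1, myoferlin and spe-4 calls to 5 of 10 at 8-fold; the cause was not tested. With the longest transcript PgR002_g252 turned to −0.79 and PgR047_g058 to −1.32, where the longest is PgR047_g058_t02. No paired analysis was possible because each tissue has 1 library, and no replicate could be left out. Values under 1 RPKM rest on few reads and on 1 decimal.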

Other observations

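The equality of reads seen at the MFP1 and PgR024 loci was looked for elsewhere after it was noticed. Of 294 other pairs in which a gene with at least 100 testis reads lies inside a gene on the opposite strand with several transcripts, 55 (18.7%) had 2 host transcripts whose testis reads differed by the reads of the inner gene, within 1%. Hosts with many transcripts offer more differences, and this was not adjusted for. Both MFP3 loci have the same nested layout: PgR016_g084 lies inside PgR016_g083, and PgR205_g003 inside PgR205_g002, each on the opposite strand. The MFP3 genes PgR205_g002 and PgR205_g003 had 3.26% and 3.47% of their testis level in intestine and 1.17% and 1.71% in embryo. The 6 MFP1 and MFP2 genes had at most 0.591% in embryo. The other MFP3 pair differed: PgR016_g083 and PgR016_g084 had 1.71% and 1.36% in intestine and 0.358% and 0.499% in embryo. Reads may be counted at both genes of each pair.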
